A study of Homo sapiens with 5 samples.

Results

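Replication-dependent histone genes were described in 5 RNA-seq libraries of the human prostate cancer line C4-2B. Members were the protein-coding genes whose GENCODE v29 symbol starts with HIST1H, HIST2H, HIST3H or HIST4H, which gave 71 of the 58812 genes in the count table. Of these, 55 lie on chromosome 6 (the HIST1 cluster), 15 on chromosome 1 (12 HIST2 and 3 HIST3 genes) and 1 on chromosome 12 (HIST4H4). By type there were 6 H1, 17 H2A, 18 H2B, 15 H3 and 15 H4 genes.

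C4-2B is a castration-resistant line derived from LNCaP. The series compared 2 libraries of the parental line, 2 of the clone C4K13A and 1 of the clone C5K13A. Both clones carry HOXB13, a homeobox transcription factor of the prostate, with the change K13A (lysine 13 to alanine), and the question was which transcripts depend on the acetylation of that lysine. All groups were grown in C4-2B media with no other treatment named. Each mutant group is 1 clone, so a property of the clone and an effect of K13A cannot be told apart, and nothing in the labels says whether replicate libraries came from separate cultures. The spread that p-values are measured against may therefore be technical.

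Replication-dependent histone genes supply the histones that package newly copied DNA, and their transcripts are made mainly in S phase. The core types (H2A, H2B, H3 and H4) form the nucleosome, and H1 binds the linker DNA between nucleosomes. Most of these genes have no introns, and their mRNAs end in a conserved stem-loop instead of a poly(A) tail. The stem-loop is bound by SLBP (stem-loop binding protein), and transcription is driven by NPAT, a target of cyclin E and CDK2, in nuclear histone locus bodies. The libraries were made from total RNA depleted of ribosomal RNA with RiboErase, which does not select for a poly(A) tail.

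The stem-loop is shown because it is the sequence that defines these transcripts. The motif searched, on the sense strand only, was GG, 2 free bases, CTTTT, 1 free base, AG, 2 free bases and CC, and it was looked for in the 100 bases after the stop codon of the GENCODE v29 transcripts (GRCh38). It was found in 27 of the 29 members with a 3′ UTR of that length (93.1%), all but HIST1H3E and HIST1H2BJ. Among the 18719 other protein-coding genes with such a window it was found in 1 (0.00534%), H2AFX, which encodes the variant H2A.X. With shorter UTRs included, 31 of 36 members had a match, which began 23 to 68 bases after the stop codon (median 37). The matches took 5 forms, written 5′ to 3′ with the 3 positions that vary among them in capitals, and the outer capitals, which face each other in the stem, split by type. They were C and G in H4 genes and T and A in all others but HIST1H2AG.
17 members of types H2A, H2B and H3, among them HIST3H2A, HIST3H2BB and HIST2H2BE: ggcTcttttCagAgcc
5 members of types H2B and H3, among them HIST1H2BC and HIST3H3: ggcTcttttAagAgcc
5 members of type H4, among them HIST4H4 and HIST1H4E: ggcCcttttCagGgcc
3 members of type H4 (HIST1H4I, HIST2H4A and HIST2H4B): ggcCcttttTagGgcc
HIST1H2AG: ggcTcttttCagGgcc

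The promoters of 3 members are shown because these genes stand for the 3 patterns described further on: HIST3H2A was lower in every clone library, HIST2H2BE overlapped between the groups, and HIST1H2AL was higher in every clone library. Sequences are from RefSeq (GRCh38.p14), from 250 bases before to 50 after the annotated start, 5′ to 3′ on the gene's strand. Capitals mark CCAAT and the octamer ATTTGCAT on either strand.
HIST3H2A, chr1:228457824-228458123, minus strand: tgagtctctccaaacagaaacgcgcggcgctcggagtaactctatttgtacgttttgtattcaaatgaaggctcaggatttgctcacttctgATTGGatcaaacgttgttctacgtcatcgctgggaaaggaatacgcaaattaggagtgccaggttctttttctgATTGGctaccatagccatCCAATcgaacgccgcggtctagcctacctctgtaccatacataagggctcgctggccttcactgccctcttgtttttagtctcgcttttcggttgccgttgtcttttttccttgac
HIST2H2BE, chr1:149886633-149886932, minus strand: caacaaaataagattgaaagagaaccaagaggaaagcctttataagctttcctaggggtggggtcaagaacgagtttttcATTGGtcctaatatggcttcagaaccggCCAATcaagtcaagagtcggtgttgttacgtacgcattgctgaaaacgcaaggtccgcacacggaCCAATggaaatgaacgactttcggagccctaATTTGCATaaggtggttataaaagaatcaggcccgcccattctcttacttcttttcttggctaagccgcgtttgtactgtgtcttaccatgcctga
HIST1H2AL, chr6:27865067-27865366, plus strand: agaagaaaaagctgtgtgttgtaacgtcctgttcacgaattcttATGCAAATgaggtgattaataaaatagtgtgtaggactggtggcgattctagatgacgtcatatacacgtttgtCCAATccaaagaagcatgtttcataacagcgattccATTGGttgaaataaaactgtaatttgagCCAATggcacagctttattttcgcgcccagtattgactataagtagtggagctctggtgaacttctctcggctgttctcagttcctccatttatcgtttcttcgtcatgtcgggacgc

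A promoter entry was found for 61 members, and motifs were counted on both strands. The octamer ATTTGCAT, the site of OCT1, was in 26 of them (42.6%) and in 1.77% of 35116 promoters of the same length. It was in 11 of 14 H2A and 14 of 18 H2B promoters, in 1 of 10 H3 promoters, and in 0 of 6 H1 and 0 of 13 H4 promoters. CCAAT, bound by NF-Y, was in 51 promoters (83.6%, against 34.6% of all), with H4 the exception at 3 of 13. TATAAA was in 40 (65.6%, against 11.5%). AAACACA, known from H1 promoters, was in 6 of 6 H1 promoters, in 9 members in all (14.8%) and in 5.64% of all promoters. A match is a description of the letters and not evidence that a factor binds.

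Levels are in CPM, read counts relative to library size after TMM scaling (edgeR). Total counts ran from 43190276 to 57282373 per library. Of the 71 members 69 had at least 1 count, 38 had 10000 or more over the 5 libraries, and 12 had some but under 100. HIST2H3PS2 and HIST1H2AK had 0. After the filter on low counts 60 members were tested in the comparison of both clones with parental cells (46 on chromosome 6, 13 on chromosome 1 and HIST4H4), and 11 were not. The untested members included HIST1H2AA, HIST1H2BA and HIST3H3, which are known mainly from the germline. HIST3H3 had 26 counts in all 5 libraries together.

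Per kilobase of exon, the highest mean level was that of the H3 gene HIST1H3B (1370 CPM per kb), followed by the H2B gene HIST1H2BK (1151) and the H2A gene HIST2H2AC (945). The linker histone genes HIST1H1B, HIST1H1C and HIST1H1E followed at 878, 876 and 818 CPM per kb. This ranking depends on the annotated lengths: 35 members, HIST1H3B, HIST1H2BK and HIST2H2AC among them, have no 3′ UTR in the model. Before division by length, HIST2H2BE (528 CPM, 2194 bases) lay above HIST1H2BK (439 CPM, 381 bases). HIST1H2BK also shares 74.1% of its 50-base windows with other genes. Genes of 1 type in the same stretch differed widely: the H3 gene HIST1H3C, in the same stretch of chromosome 6 as HIST1H3B, reached 3.93 CPM per kb. Members took 0.681% (library 1) and 1.05% (library 2) of all parental counts. Their share was 1.01% and 1.00% in C4K13A and 1.02% in C5K13A. The division among types was steady, with H2B at 32.3% to 33.5% of member CPM, H2A at 22.5% to 24.2%, H1 at 17.5% to 19.2%, H3 at 14.8% to 15.5% and H4 at 9.58% to 10.7%.

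Taking all members together, the widest spread was between the parental libraries. The HIST3 genes differed, at a summed 96.5 and 83.6 CPM in parental and 44.4 to 59.3 in the clone libraries. Summed over all members the level was 6571 CPM in parental library 1 and 10787 in parental library 2, against 9810 and 10333 in C4K13A and 10430 in C5K13A. Parental library 2 lay above every clone library, and parental library 1 was the low one. The latter was lowest of the 5 libraries for 51 of 60 tested members (85%), against 28.2% of all genes tested. The median member was 0.69 (log2) higher in parental library 2 than in parental library 1, and the median gene -0.01. Residual mitochondrial ribosomal RNA moved with this difference, at 28.0 CPM in parental library 1, 1761 in parental library 2, 63.2 and 365 in C4K13A, and 669 in C5K13A. In bulk RNA, fewer cells in S phase and less histone RNA per cell cannot be told apart.

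**Figure D1:**
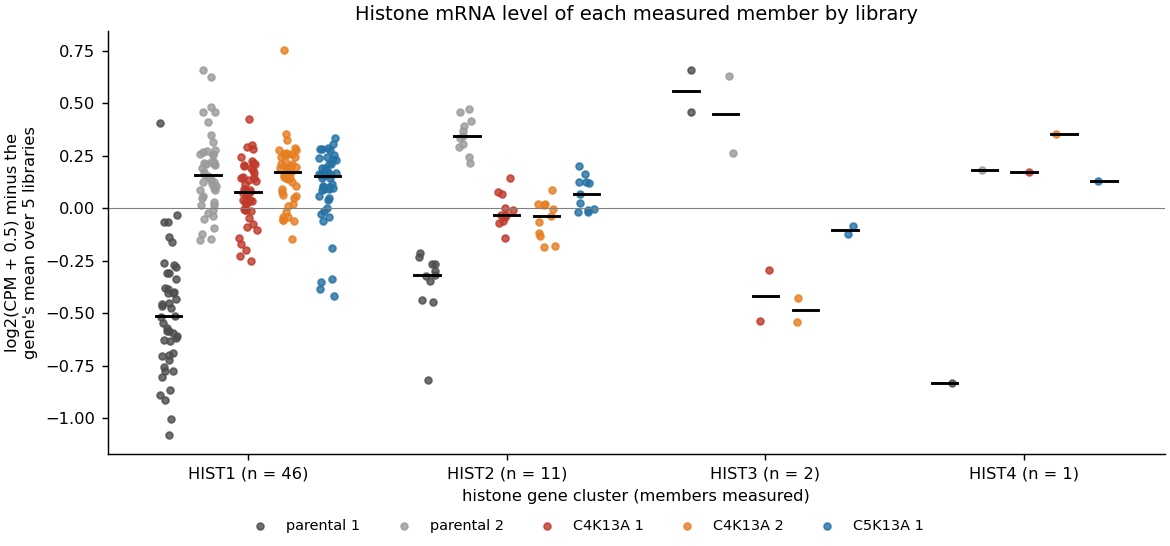
Level of each of the 60 tested histone genes in each library, as log2(CPM + 0.5) minus the gene's mean over 5 libraries, by cluster. Points are genes and bars their medians. HIST1 and HIST2 genes sit lowest in parental library 1, and HIST2 genes highest in parental library 2, while both HIST3 genes are lower in all 3 clone libraries than in the parental ones.

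Of the 60 tested members, 0 passed the threshold (adjusted p under 0.05 over all genes, edgeR quasi-likelihood test with Benjamini-Hochberg adjustment) in both clones against parental, a comparison in which 0.203% of 20649 genes did. At an unadjusted p under 0.05 there were 4 members, where 11% of all genes passed. DESeq2 called 2 members, HIST3H2A and HIST3H2BB, both lower (2.98% of the genes it tested), and limma-voom called 0 (0.0533%). The median fold change was 0.23 (log2) over tested members, with 41 of 60 above 0. Over all genes the median was -0.00, with 49.4% above 0. Without parental library 1 the members' median changed direction, to -0.14, and without parental library 2 it was 0.66.

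The chromosome 6 and chromosome 1 genes had different medians. On chromosome 6 the median was 0.32, with 38 of 46 tested members above 0. On chromosome 1 it was -0.06, with 2 of 13 above 0, made up of -0.03 over 11 HIST2 genes and -0.85 over 2 HIST3 genes. HIST4H4 on chromosome 12 had 0.46 ± 0.28 (SE). The same order was seen within each type present on both chromosomes, on few chromosome 1 genes. H2A genes had 0.37 on chromosome 6 (9 tested) and -0.09 on chromosome 1 (5), and H2B genes 0.38 (14) and -0.01 (3). H3 genes had 0.26 (10) and -0.02 (3), and H4 genes 0.23 (9) and -0.11 (2). On chromosome 1 the H4 genes and the H3 genes HIST2H3A and HIST2H3C lie in near-identical copies. The remaining tested H3 gene there, HIST2H3D, shares 80.4% of its 50-base windows with other genes. The H2A and H2B values there each include a HIST3 gene. H1 genes, all on chromosome 6, had a median of 0.17 over 4 genes. Without parental library 1 the medians were -0.021 on chromosome 6 and -0.37 on chromosome 1, and without parental library 2 they were 0.73 and 0.28.

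The ratio of chromosome 6 to HIST2 CPM compares clusters within a library and so does not depend on the scaling between libraries. It was 3.58 and 3.72 in parental, 4.45 and 4.56 in C4K13A, and 4.34 in C5K13A, with no overlap between parental and clone libraries. Unlike the levels themselves, this ratio was close between the parental libraries. The ratio of chromosome 6 to HIST3 CPM was 52.0 and 99.9 in parental, 161 and 188 in C4K13A, and 141 in C5K13A. HIST2 over HIST3 was 14.5 and 26.9 in parental, 36.2 and 41.2 in C4K13A, and 32.4 in C5K13A. These ratios are sums over chosen genes and are given without a test.

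**Figure D2:**
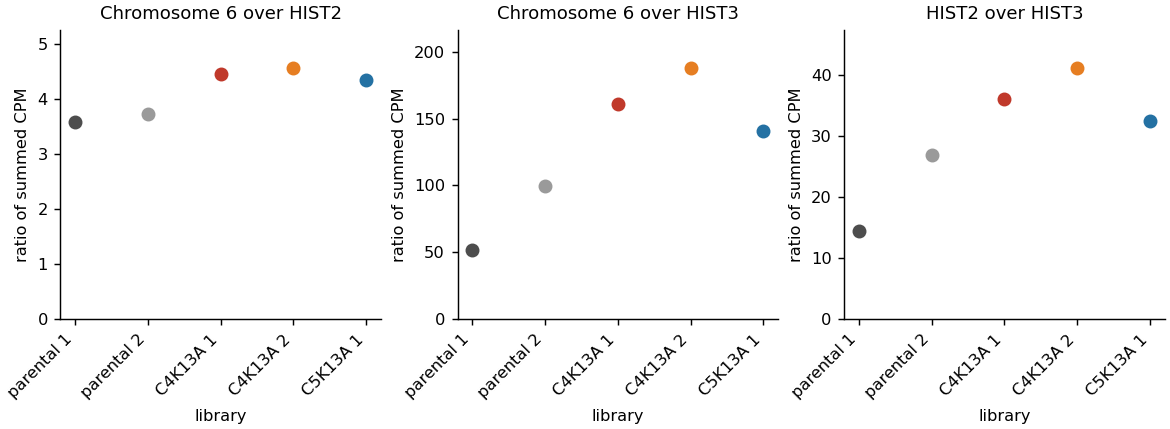
Ratios of summed CPM between histone gene clusters, 1 point per library, with axes from 0. All 3 clone libraries lie above both parental libraries in each panel; for chromosome 6 over HIST2 the parental values are 3.58 and 3.72 and the lowest clone value is 4.34.

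The libraries were also compared within the classes of residual mitochondrial ribosomal RNA, split at 200 CPM after the data were seen. Among the libraries below it, C4K13A library 1 differed from parental library 1 by a median of 0.60 over chromosome 6 members, 0.30 over HIST2 members and -0.97 over HIST3 members. Among those above it, the clones differed from parental library 2 by 0.01, -0.35 and -0.74. Each class holds 1 parental library, so these are values with no test. A fit of both clones against parental with this class as a covariate called 0 members, where 0.344% of all genes were called.

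All 3 clone libraries lay above both parental libraries for 11 of 60 members, where 13.6% of all genes did, and below for 3, where 14.9% of all genes did. The count above is near its background, and the count below is under it. The 11 were all on chromosome 6: the H2A genes HIST1H2AD, HIST1H2AG, HIST1H2AH, HIST1H2AI and HIST1H2AL, the H2B genes HIST1H2BB, HIST1H2BC, HIST1H2BN and HIST1H2BO, and the H4 genes HIST1H4D and HIST1H4I. The 3 below were HIST3H2A, HIST3H2BB and HIST1H1T, the testis H1 gene, which was under 1 CPM in every library. HIST1H2BB and HIST1H4D, among the 11 above, were also under 1 CPM in every library.

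**Figure D3:**
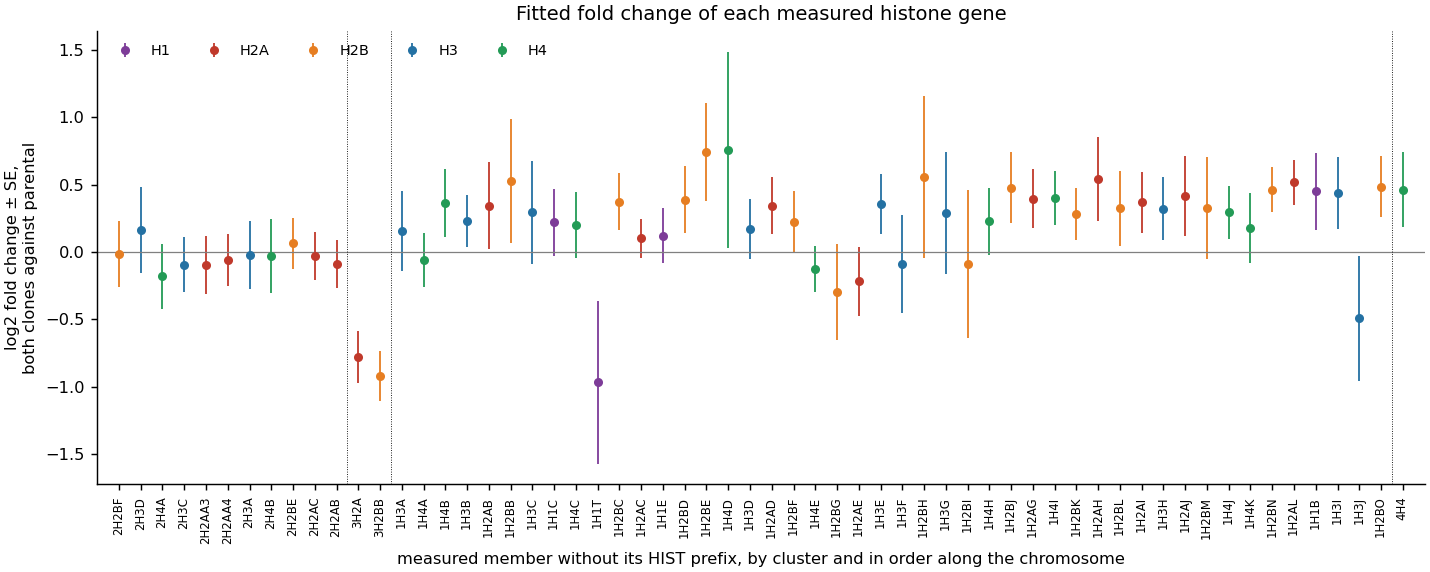
Fitted log2 fold change of both clones against parental, ± SE, for the 60 tested histone genes by cluster (dotted lines) and in order along the chromosome, coloured by type. HIST2 genes sit around 0, both HIST3 genes below it, and 38 of the 46 chromosome 6 genes above it; 0 passed the test.

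HIST3H2A and HIST3H2BB were the members with the smallest adjusted p. They form a divergent pair on chromosome 1 (GRCh38): HIST3H2A, an H2A gene (ENSG00000181218, 228456979 to 228457873, minus strand), and HIST3H2BB, an H2B gene (ENSG00000196890, 228458107 to 228460470, plus strand), with 233 bases between them. HIST3H2A was at 69.7 and 53.0 CPM in parental, 35.8 and 30.1 in C4K13A, and 41.5 in C5K13A. Every clone library was below both parental ones, with means of 61.3 ± 11.8 (SD, n = 2) and 35.8 ± 5.69 (SD, n = 3). Its fold change was -0.78 ± 0.19 (SE; edgeR adjusted p = 0.222).

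HIST3H2BB was at 26.8 and 30.2 CPM in parental, 13.2 and 14.2 in C4K13A, and 17.8 in C5K13A. Here too the groups did not overlap, and the parental libraries were close to each other (28.5 ± 2.45, SD, n = 2, against 15.1 ± 2.40, SD, n = 3, in the clones). The fold change was -0.92 ± 0.19 (SE; edgeR adjusted p = 0.151). With DESeq2 the adjusted p was 0.0301 for HIST3H2A and 0.00275 for HIST3H2BB. Without the filter on low counts edgeR gave 0.00227 and 0.00112. These 2 fits also called more of all genes, 2.98% and 3.12%, against 0.203% in the main fit. Neither gene was called with limma-voom, RLE factors, a 5 CPM filter or summed C4K13A libraries, where 0.0175% to 0.203% of all genes were. With each library left out in turn the fold change stayed below 0, at -0.96 to -0.57 for HIST3H2A and -1.06 to -0.83 for HIST3H2BB. Of their 50-base windows 0.6% and 9.5% are shared with other genes.

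Against parental, HIST3H2A had -0.90 ± 0.21 in C4K13A (SE; edgeR adjusted p = 0.117) and -0.56 ± 0.26 in C5K13A (0.779). HIST3H2BB had -1.06 ± 0.19 (0.0615) and -0.68 ± 0.24 (0.685). These comparisons share the parental libraries. In C5K13A against C4K13A the differences were 0.34 ± 0.25 and 0.38 ± 0.23 (adjusted p = 0.92 and 0.875), so a difference between the clones was not shown.

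The protein-coding genes within 1 Mb of a HIST3 gene did not share a direction: 12 of 19 tested were above 0, with a median of 0.08. Chosen after its values were seen, RNF187, which starts at 228487061 on chromosome 1 and encodes a ring finger protein, was at 1114 and 883 CPM in parental, 377 and 528 in C4K13A, and 638 in C5K13A. Its fold change was -0.96 ± 0.23 (SE; edgeR adjusted p = 0.215). TRIM11, likewise chosen after its values were seen, had -0.26 ± 0.14 and no overlap between groups. All clone libraries lay below both parental ones in 2 of the 19 genes, where 14.9% of all genes did. They lay above both in 0, where 13.6% of all genes did. The promoter of HIST3H2A printed above holds 3 CCAAT boxes and no match to the octamer.

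**Figure D4:**
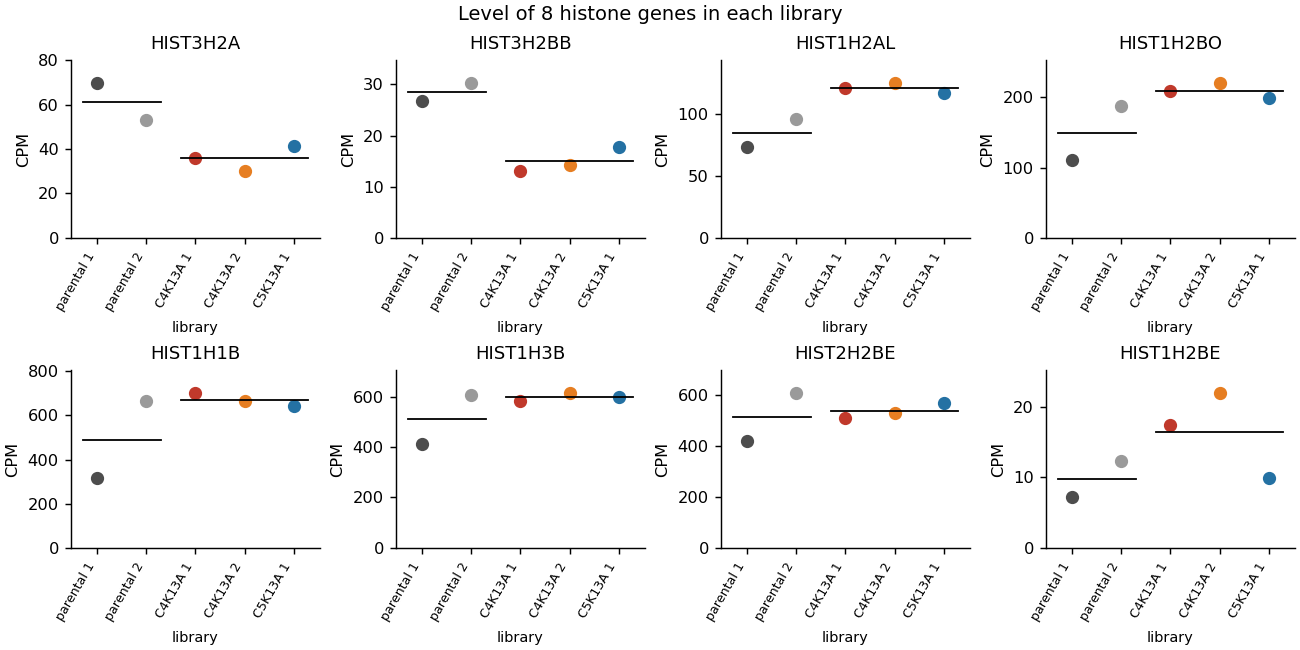
Level of 8 histone genes in CPM in each library, with axes from 0 and a line at each group's mean. HIST3H2A and HIST3H2BB are lower in all clone libraries, HIST1H2AL and HIST1H2BO higher, HIST2H2BE, HIST1H3B and HIST1H1B overlap between the groups, and HIST1H2BE is highest in both C4K13A libraries.

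The HIST2 genes lie between 149782689 and 149887916 on chromosome 1, apart from HIST2H3PS2, which had 0 counts. All 11 tested genes were lowest in parental library 1 and highest in parental library 2, with the clones between. HIST2H2BE, an H2B gene, was at 420 and 607 CPM in parental, 512 and 530 in C4K13A, and 570 in C5K13A. Its fold change was 0.06 ± 0.19 (SE; edgeR adjusted p = 0.93).

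HIST2H2BF, another H2B gene, was at 312 and 555 CPM in parental, 384 and 430 in C4K13A, and 475 in C5K13A (fold change -0.01 ± 0.24, SE). HIST2H2AC, an H2A gene, was at 312 and 434 in parental, 364 and 371 in C4K13A, and 362 in C5K13A (-0.03 ± 0.18). HIST2H2AB, its H2A neighbour, was at 109 and 155 in parental and between 121 and 126 in the clones (-0.09 ± 0.18). The H3 gene HIST2H3D was at 114 and 275 in parental and between 213 and 222 in the clones (0.16 ± 0.32). In each of these 4 genes the clone libraries lay inside the range of the parental ones. Their counts are not all free of shared sequence either. HIST2H3D shares 80.4% of its 50-base windows with other genes, HIST2H2AC 30.5% and HIST2H2BF 26.9%.

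The other HIST2 genes lie in near-identical copies, so the split of reads between them is uncertain. HIST2H3A and HIST2H3C share 100% of their 50-base windows with another gene, HIST2H2AA3 100%, HIST2H2AA4 97.1%, HIST2H4A 97.5% and HIST2H4B 97.2%. Their fold changes were -0.02 ± 0.25 for HIST2H3A and -0.09 ± 0.20 for HIST2H3C (H3), -0.09 ± 0.22 for HIST2H2AA3 and -0.06 ± 0.19 for HIST2H2AA4 (H2A), and -0.18 ± 0.24 for HIST2H4A and -0.03 ± 0.28 for HIST2H4B (H4). HIST2H2AB and HIST2H2BE, with 2% and 8.1% of windows shared, had values near 0 as well. Protein-coding neighbours within 1 Mb of the HIST2 genes had a median of -0.02 over 30 tested.

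On chromosome 6 the members lie between 25726132 and 27893843 in 4 stretches. The first holds only HIST1H2AA and HIST1H2BA, which were not tested in both clones against parental. In that comparison the second, with 28 tested members, had a median of 0.22 and 21 above 0. The third and the fourth had 0.40 (5 of 5 above 0) and 0.37 (12 of 13 above 0).

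By the rule for naming, the highest fold changes at a mean of 5 CPM or more were those of HIST1H2BE, HIST1H2AH, HIST1H2AL, HIST1H2BO and HIST1H2BJ. HIST1H2AL, an H2A gene (ENSG00000276903, 27865355 to 27865747), was at 72.9 and 95.7 CPM in parental, 121 and 125 in C4K13A, and 116 in C5K13A. The groups did not overlap, and the clones were close to each other. Its fold change was 0.52 ± 0.17 (SE; edgeR adjusted p = 0.316).

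HIST1H2BO, an H2B gene at the end of the cluster, was at 111 and 188 CPM in parental, 209 and 220 in C4K13A, and 199 in C5K13A. Its fold change was 0.48 ± 0.23 (SE; edgeR adjusted p = 0.482). Leaving out parental library 1 gave 0.15. HIST1H2AH, an H2A gene, was at 82.3 and 191 in parental, 203 and 198 in C4K13A, and 195 in C5K13A (0.54 ± 0.31). HIST1H2BJ, an H2B gene, was at 79.5 and 153 in parental, 152 and 177 in C4K13A, and 157 in C5K13A (0.48 ± 0.26). For HIST1H2BO, HIST1H2AH and HIST1H2BJ, parental library 2 was near the clones and parental library 1 was well below.

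Among the abundant H1 genes, HIST1H1B was at 316 and 665 CPM in parental, 700 and 667 in C4K13A, and 643 in C5K13A (0.45 ± 0.29, SE). HIST1H1C was at 367 and 657 in parental, 564 and 558 in C4K13A, and 666 in C5K13A (0.22 ± 0.25). HIST1H1E was at 469 and 703 in parental, 579 and 636 in C4K13A, and 696 in C5K13A (0.12 ± 0.20). In all 3 parental library 1 was the lowest, and parental library 2 lay within or above the range of the clones.

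By CPM not divided by length, the most abundant H2A gene was HIST1H2AG. It was at 288 and 466 CPM in parental, 493 and 519 in C4K13A, and 475 in C5K13A (0.40 ± 0.22, SE). HIST1H2AD, also H2A, had 0.34 ± 0.21, and 98% of its windows are shared. The gene sharing most of them, AL031777.3, is not in the count table. HIST1H2BK, the H2B gene with the highest level per length, was at 316 and 461 in parental, 440 and 496 in C4K13A, and 479 in C5K13A (0.28 ± 0.19). The clones lay above both parental libraries for HIST1H2AG and HIST1H2AD but not for HIST1H2BK.

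The H3 gene HIST1H3B was at 413 and 606 CPM in parental, 583 and 613 in C4K13A, and 599 in C5K13A (0.23 ± 0.19, SE). HIST1H3H was at 156 and 270 in parental, 246 and 274 in C4K13A, and 278 in C5K13A (0.32 ± 0.23). The most abundant H4 genes, by CPM not divided by length, were HIST1H4E (-0.13 ± 0.17), HIST1H4C (0.20 ± 0.24) and HIST1H4H (0.23 ± 0.25). The H4 gene HIST4H4 was at 51.8 and 105 in parental, 105 and 118 in C4K13A, and 101 in C5K13A, so that only parental library 1 stood apart.

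The lowest fold changes on chromosome 6 at 5 CPM or more were those of a divergent pair, HIST1H2BG (H2B) and HIST1H2AE (H2A). HIST1H2BG was at 5.49 and 12.02 CPM in parental, 8.66 and 7.22 in C4K13A, and 5.44 in C5K13A (-0.30 ± 0.36, SE). HIST1H2AE was at 21.9 and 37.0 in parental, 29.9 and 25.2 in C4K13A, and 20.7 in C5K13A (-0.22 ± 0.25). In both genes the C5K13A library was the lowest of the 5, close to parental library 1.

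Clone by clone, 0 members were called in C4K13A against parental (0.699% of 22743 genes were), in C5K13A against parental (0.0484%) or in C5K13A against C4K13A (0.066%), by edgeR. At an unadjusted p under 0.05 there were 5, 1 and 1 members, where 12.2%, 6.45% and 6.42% of all genes passed. DESeq2 called 3, 0 and 0 members, where 3.71%, 1.25% and 0.976% of all genes passed. The 3 were HIST3H2A and HIST3H2BB (lower) and HIST1H2BE (higher). With limma-voom 0 members were called in each, where 0.378%, 0% and 0% of all genes passed. The filter kept 62 members in these fits, HIST1H2BA and HIST3H3 among them. Chromosome 6 members (47 tested) had a median of 0.31 in C4K13A against parental and 0.34 in C5K13A. For the 11 HIST2 members it was -0.10 and 0.03. In C5K13A, with 1 library, the test assumes that this library varies like the others.

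The count in C4K13A depended on the parental libraries. Without parental library 2, 26 members were called in C4K13A (24 higher and 2 lower, 7.59% of all genes), and 14 in C5K13A, all higher (3.04% of all genes). Without parental library 1, far fewer members were called in either clone, and a smaller share of all genes was called as well. Each of these fits leaves 1 parental library, so its calls are not read as a result about the members. HIST3H2A and HIST3H2BB were the 2 lower genes without parental library 2.

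Between the clones the median member differed by 0.04. HIST1H2BE, an H2B gene of chromosome 6 (26172059 to 26184655), differed the most among members of 5 CPM or more. It was at 7.30 and 12.4 CPM in parental, 17.4 and 21.9 in C4K13A, and 9.94 in C5K13A. Its C4K13A libraries were the highest, and C5K13A lay between the parental ones. The difference of C5K13A from C4K13A was -0.98 ± 0.37 (SE; edgeR adjusted p = 0.728), and that of C4K13A from parental 1.00 ± 0.29 (adjusted p = 0.209). Of its 50-base windows 30.5% are shared with other genes.

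Of all members, 12 pairs are transcribed in opposite directions from a common region, 11 of them an H2A and an H2B gene. In 10 pairs both members were tested, and in 8 of these both had fold changes of the same sign. HIST3H2A with HIST3H2BB and HIST1H2BG with HIST1H2AE were the pairs with both members below 0. The pair with different signs on chromosome 1 was HIST2H2BE (0.06) with HIST2H2AC (-0.03), both near 0. Members with the promoter octamer had a median of 0.33 over 23 tested and those without it 0.22 over 28.

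Genes that make and process histone mRNA were taken as a list of 15, of which 0 were called (edgeR), 12 were above 0 and the median was 0.18. In 6 of the 15 all clone libraries lay above both parental ones, against 13.6% of all genes. CCNE2 and CCNE1, the cyclins E that activate CDK2, had 0.65 ± 0.20 and 0.59 ± 0.20 (SE), and CDK2 itself 0.46 ± 0.19. CSTF2, the CstF-64 subunit of the cleavage machinery, had 0.41 ± 0.17. Named for their role and not by adjusted p, SLBP, which binds the stem-loop, was at 75.0 and 87.1 CPM in parental, 104 and 89.0 in C4K13A, and 84.9 in C5K13A, and NPAT had -0.07 ± 0.17. For histone mRNA decay, 9 genes were tested, 0 were called, 6 were above 0 and the median was 0.06.

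Of 20 S-phase genes 0 were called, 17 were above 0 and the median was 0.33, close to that of the chromosome 6 histone genes. These genes, too, had 19 of 20 lowest in parental library 1, and the median gene was 0.65 higher in parental library 2 than in parental library 1. RRM2, the small subunit of ribonucleotide reductase, was at 119 and 145 CPM in parental, 212 and 234 in C4K13A, and 197 in C5K13A (0.70 ± 0.17, SE; edgeR adjusted p = 0.206). FEN1, the flap endonuclease of Okazaki fragments, had 0.62 ± 0.24, and PCNA, the replication clamp, 0.48 ± 0.21.

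**Figure D5:**
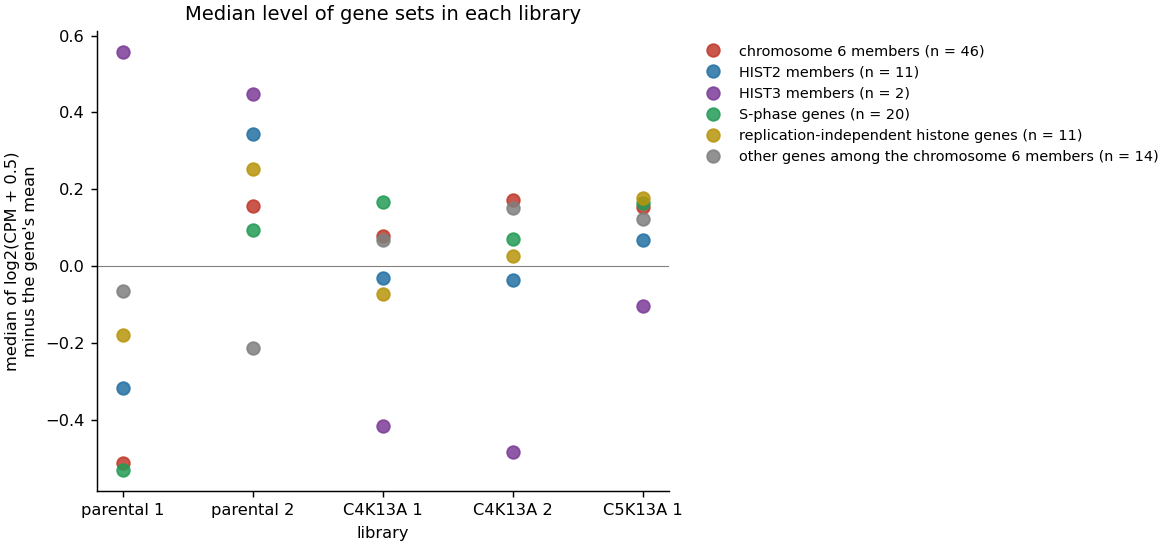
Median of log2(CPM + 0.5) minus each gene's mean, for 6 sets of genes in each library. Chromosome 6 histone genes and S-phase genes are lowest together in parental library 1, HIST2 genes are highest in parental library 2, and HIST3 genes are lower in the clone libraries.

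Replication-independent histone genes, a class expressed in general, but not in every gene, through the cell cycle, had a median of 0.05 over 11 genes. Of these 7 were above 0 and 0 were called. H2AFY2, which encodes a macroH2A, was at 14.1 and 12.8 CPM in parental, 6.46 and 3.46 in C4K13A, and 5.63 in C5K13A (-1.38 ± 0.28, SE; edgeR adjusted p = 0.157). H2AFX, the gene outside the members with the stem-loop, had 0.58 ± 0.22. H1F0, a linker histone gene, was at 206 and 308 CPM in parental, 144 and 136 in C4K13A, and 252 in C5K13A (-0.53 ± 0.30). H2AFZ, which encodes H2A.Z, had 0.52 ± 0.37. Of 16 histone chaperone genes 0 were called, 13 were above 0 and the median was 0.15, with ASF1B at 0.50 ± 0.21 and DAXX, a chaperone of H3.3, at 0.40 ± 0.15.

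Other genes of the same place or shape were taken beside the members. Between the first and the last chromosome 6 member, 14 protein-coding genes that are no histone genes were tested, and 11 were above 0 with a median of 0.26. In 5 of the 14 (ABT1, TRIM38, BTN3A1, BTN2A1 and HMGN4) all clone libraries lay above both parental ones, against 13.6% of all genes. Unlike the members, these genes had a median of -0.16 in parental library 2 against parental library 1. Among 360 single-exon protein-coding genes that are no members the median was 0.02. Of 6 members known to make polyadenylated transcripts as well, 6 were above 0, with a median of 0.30, and other short RNAs without a poly(A) tail had -0.40 over 2 tested.

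The line's identity was checked with 9 prostate luminal markers, whose summed level was between 5040 and 6862 CPM, with KLK3 at 1859 to 3103 CPM. Leukocyte markers summed to at most 0.327 CPM, fibroblast markers to between 5.12 and 6.98, and endothelial markers to between 2.66 and 5.73.

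Where genes overlap, the counts are uncertain because the strand setting of the counting is not given in the sources used here. HIST1H2AK had 0 counts, and all of its exon bases lie under an exon of HIST1H2BN on the other strand. HIST1H2AM had 11 counts, and most of its exon lies under HIST1H3J on the same strand. In 17 members 50% or more of the 50-base windows occur in another gene, and in 7 all of them do. For HIST1H2AD and HIST1H3D, both among the 17, the gene sharing most is AL031777.3, which is not in the count table. Over the 33 tested members with under 5% of windows shared and no exon overlap, the median was 0.29, with 25 above 0.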

How the data were processed

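The table the authors deposited holds raw read counts for each Ensembl gene, made with bcl2fastq, STAR 2.5 and featureCounts 1.4.6-p5 (Subread), per the submitters' processing notes. The sources used here do not give the build, annotation, strand setting or handling of multiply aligned reads. Total RNA was treated with DNase, depleted with RiboErase and run on a HiSeq, per the labels' protocols. Symbols, types and positions came from GENCODE v29 (GRCh38) by Ensembl ID, which held 55297 of the 58812 IDs.

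Tests used edgeR 4.0.16 in R 4.3.3 (glmQLFit and glmQLFTest after filterByExpr and TMM, Benjamini-Hochberg adjustment over all genes, threshold 0.05). Both clones against parental used 2 groups (3 residual degrees of freedom), and the other comparisons 1 fit of 3 groups (2). Alternatives were RLE factors, no filter, a 5 CPM filter, DESeq2 1.42.0, limma-voom (limma 3.58.1), leaving out ribosomal, mitochondrial and small RNA genes, summed C4K13A libraries, a replicate block and each library left out. No pair of libraries agreed within sampling noise. A centred level is log2(CPM + 0.5) minus the gene's mean over the 5 libraries.

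The members and lists were chosen with earlier results of these data known. Members named are the 3 of highest mean CPM in each type, those outside chromosome 6 with a count, any called, and, at 5 CPM or more, the 5 highest and 5 lowest fold changes of both clones against parental and the 3 highest and 3 lowest of C5K13A against C4K13A. Up to 4 genes of a list are named by adjusted p. SLBP, NPAT, RNF187, TRIM11 and the non-histone genes of chromosome 6 are named beside this rule, after their values were seen.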

Additional observations from a re-analysis of the deposited data

How the results depend on the processing

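Members called in both clones against parental numbered 0 with edgeR, 2 without the filter and 2 with DESeq2, and in C4K13A against parental 0, 3 without the filter and 3 with DESeq2. The whole table was then called more often as well (3.12% and 2.98% of genes for both clones, 3.6% and 3.71% for C4K13A). Leaving out each library in turn gave 0 to 26 members in C4K13A and 0 to 14 in C5K13A. Median fold changes ran from -0.14 to 0.66 for all members, -0.021 to 0.73 for chromosome 6 and -0.37 to 0.28 for chromosome 1, with the extremes set by the parental libraries (lowest without library 1, highest without library 2). The SD between replicates was 0.333, 0.338 and 0.322. Over chromosome 1 members with under 5% of windows shared and no exon overlap, chosen after the data were seen, the median was -0.78, from HIST3H2A alone by its construction. A covariate for residual ribosomal RNA, also added after the data were seen, gave 0 members and a median of 0.21.

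The replicate numbers pair only 2 libraries of each group and no shared source is given. With a replicate block and C5K13A left out, 3 members were called (HIST1H2BE higher, HIST3H2A and HIST3H2BB lower), where 4.35% of all genes were. Without the block and with C5K13A still left out, 0 members were called in C4K13A, where 0.639% of all genes were. The members' median with the block was 0.27. Deviations of same-numbered libraries correlated at 0.261 over all genes and -0.02 over members.

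For single genes, 412 alternatives kept direction and side of the threshold, 7 newly passed it and 29 turned direction; the cause was not tested. With limma-voom and with C4K13A summed the values were 0.039 and 0.018 for HIST2H2BF, 0.028 and 0.010 for HIST2H3A, and 0.043 and 0.017 for HIST2H4B. With each library left out, ranges were -0.37 to 0.46 for HIST2H2BF, -0.34 to 0.94 for HIST2H3D, -0.53 to 0.28 for HIST2H4A, -0.39 to 0.28 for HIST2H3C, -0.37 to 0.25 for HIST2H2AA3, -0.32 to 0.26 for HIST2H2AA4, -0.33 to 0.38 for HIST2H3A, -0.41 to 0.48 for HIST2H4B, -0.18 to 0.36 for HIST2H2BE, -0.25 to 0.23 for HIST2H2AC and -0.32 to 0.19 for HIST2H2AB. They were -0.020 to 0.54 for HIST1H3B, -0.14 to 0.70 for HIST1H1C, -0.16 to 0.69 for HIST1H4C, -0.14 to 0.44 for HIST1H1E, -0.26 to 0.021 for HIST1H4E, -0.76 to 0.37 for HIST1H2BG, -0.55 to 0.21 for HIST1H2AE, -0.16 to 0.75 for HIST1H4H and -0.022 to 0.77 for HIST1H3H.

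The median difference between the parental libraries (0.69 over members) was larger than the median fold change of chromosome 6 members, and near-identical copies limit what the counts of single HIST2 genes show.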
